A study of Homo sapiens with 2 samples.

Results

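The genes described here are the 5 subunits of the transcription factor NF-κB (NFKB1, NFKB2, REL, RELA and RELB), 3 IκB inhibitors (NFKBIA, NFKBIB and NFKBIE), the ubiquitin-editing enzyme gene TNFAIP3 and the atypical IκB gene BCL3. They were chosen by gene symbol, with earlier results of these data known. All 10 were found among the 58735 genes of the deposited count table, and all 10 belonged to the 12064 genes for which 1 or both libraries had 50 reads or more, the minimum used throughout. They were counted in 1 library of DHA-treated cells (label DHA) and 1 library of control cells (label NC). DHA is dihydroartemisinin, the active form of the artemisinin antimalarials. Both libraries came from SUIT-2, a human pancreatic adenocarcinoma line, in a derivative described as highly metastatic. The series concerns genes that respond to DHA in pancreatic cancer. The sources used here do not give its dose, the exposure time or a vehicle.

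NF-κB acts as dimers of Rel proteins that IκB proteins hold in the cytoplasm. In the canonical arm, signals from receptors such as those for tumour necrosis factor, interleukin-1 and bacterial products activate the IκB kinase complex. The kinase marks NFKBIA, NFKBIB and NFKBIE proteins for degradation and frees dimers of the NFKB1 product with RELA or REL. In the noncanonical arm, receptors such as LTBR, CD40 and TNFRSF12A let the kinase MAP3K14 (NIK) accumulate, and the NFKB2 precursor is then processed to a subunit that pairs with RELB. NFKBIA, NFKBIE, TNFAIP3, NFKB1, NFKB2, REL and RELB are known transcriptional targets of NF-κB in many cell types, so that their messages report on the pathway as well as encode it. Canonical here means NFKB1, REL, RELA, NFKBIA, NFKBIB, NFKBIE and TNFAIP3. Noncanonical means NFKB2 and RELB, and BCL3, a nuclear partner of NFKB1 and NFKB2 homodimers, was placed in neither arm.

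Because NF-κB genes are themselves targets of NF-κB, the 250 bases before each RefSeq transcript start (build GRCh38.p14) were searched on both strands for the κB consensus, a site of 10 bases. RefSeq promoter entries were at hand for 8 of the 10 genes, with 13 starts in all. A match lay before at least 1 start of 6 of these 8 genes, and before 7 of the 13 starts. Of all 35116 RefSeq starts, 5.21% had a match, and for the canonical target genes described below it was 16 of 45 starts. Counted by gene, 6.28% of all genes in the promoter table and 8.20% of the genes tested here had a match before at least 1 start, and 15 of the 30 canonical target genes with an entry did. The stretches that hold the matches are shown 5′ to 3′ on the strand of the gene, with the matching bases in capitals. The search accepted only stretches that fit this consensus on either strand, so likeness among the matches was set by the search. The stretches show where the sites lie, and how those before NFKB2 are spread over 2 starts.
NFKB2, chr10:102395504-102395693, plus strand, 201 to 12 bases before the third listed start: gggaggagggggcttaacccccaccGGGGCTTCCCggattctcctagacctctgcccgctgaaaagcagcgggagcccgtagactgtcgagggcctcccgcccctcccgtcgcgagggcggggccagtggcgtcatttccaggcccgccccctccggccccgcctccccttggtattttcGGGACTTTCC
NFKB2, chr10:102394462-102394491, plus strand, 116 to 87 bases before the second listed start: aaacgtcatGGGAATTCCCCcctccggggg
NFKB2, chr10:102394490-102394519, plus strand, 88 to 59 bases before the same start: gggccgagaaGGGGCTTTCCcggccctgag
NFKB1, chr4:102501300-102501329, plus strand, 59 to 30 bases before the start: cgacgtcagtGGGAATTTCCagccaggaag
REL, chr2:60881518-60881547, plus strand, 56 to 27 bases before the start: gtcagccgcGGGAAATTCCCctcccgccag
NFKBIA, chr14:35404796-35404855, minus strand, 106 to 47 bases before the start: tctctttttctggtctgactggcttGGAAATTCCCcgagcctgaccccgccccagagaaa
NFKBIB, chr19:38899916-38899951, plus strand, 53 to 18 bases before the second listed start: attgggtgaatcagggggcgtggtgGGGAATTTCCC
TNFAIP3, chr6:137867188-137867217, plus strand, 71 to 42 bases before the start: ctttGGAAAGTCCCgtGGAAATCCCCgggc
A run of 11 capitals marks overlapping matches on both strands, and the TNFAIP3 stretch holds 2 matches, both on the other strand. RefSeq and GENCODE starts can differ, and parts of these stretches lie in GENCODE exons of the gene or of an overlapping gene. This holds for all 30 bases shown for TNFAIP3 and for each of the 30-base stretches of NFKB2, for 27 bases of REL, 21 of NFKB1 and 1 of the longer NFKB2 stretch, and for 0 bases of NFKBIA and NFKBIB. No match was found in these windows before RELA or BCL3. A match describes the letters only, and no binding was measured.

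There was 1 library per group, so no difference below has a replicate check and no p-value was computed. The DHA library held 14521101 counted reads and the NC library 15452609. Library sizes were adjusted with TMM factors (trimmed mean of M values), and scaled counts are given as CPM (per 1000000 reads). Ratios are DHA over NC after adding 0.5 reads to each count, on a log2 scale where stated. Each ratio has a 95% counting interval, obtained by treating the DHA reads of a gene as a binomial part of its reads in both libraries (exact Clopper-Pearson method). It covers counting error only, and can be too narrow even for that, since PCR copies of a molecule are not independent. A gene was called higher or lower at 2-fold or more with an interval that excluded a ratio of 1. This rule of size called 6.72% of the 12064 genes higher and 10.3% lower, with a median log2 ratio of 0.04 over all of them. In bulk RNA, fewer cells that express a gene and less RNA per cell cannot be told apart.

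The epithelial label was checked against marker genes. Of 8 pancreatic epithelial markers, 7 reached the read minimum and 6 of these were lower in the DHA library, with a summed level of 1423 CPM in the DHA library and 3425 CPM in the NC library. KRT8, KRT18, KRT19, EPCAM, CDH1 and MUC1 were the 6. They ranged from 2.34-fold lower (KRT18) to 37.6-fold lower (CDH1, with 23 reads in the DHA library and 933 in the NC library). The sums hide this range, since KRT8 alone gave 812 CPM in the DHA library and 1939 CPM in the NC library. CLDN4, the other marker that reached the minimum, had 1613 reads in the DHA library and 1528 in the NC library. Its ratio was 1.11, and it was not called. The 7 immune markers summed to 1.58 CPM in the DHA library and 2.86 CPM in the NC library, and PTPRC and CD3E had 0 reads in both. CD68 also had 0 reads in both, but AC016876.2 on the same strand overlaps 81.7% of its exon length, so its count is uncertain. The 6 fibroblast markers summed to 0.96 and 8.44 CPM (DHA and NC), and the 4 endothelial markers to 4.53 and 18.3 CPM (DHA and NC). From these lists COL1A1, with 11 reads in the DHA library and 83 in the NC library, and PECAM1, with 54 reads in the DHA library and 280 in the NC library, passed the read minimum, and both were called lower. CDH5, DCN and COL3A1 had 0 reads in both libraries. Of 5 retina markers, tested because the extraction protocol names that tissue, 4 had 0 reads in both libraries. The part of these shifts in the values below was not tested.

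Of the 10 genes, 3 were called higher in the DHA library, NFKB2, RELB and RELA, and 0 were called lower. Of all genes tested, 6.72% were called higher and 10.3% lower. All 3 are subunits. The 5 inhibitors, BCL3 included, gave 0 calls. The median log2 ratio of the 10 was 0.63, with 7 values above 0 and 3 below. For the 5 subunits the median was 1.02 and for the 5 inhibitors 0.19. At 1.5-fold the count was 6 higher, with NFKB1, NFKBIB and NFKBIE added, and 1 lower, BCL3, where 18.9% and 19.2% of all genes tested were called. At 4-fold 0 of the 10 were higher and 0 lower, where 0.912% and 2.82% of all genes tested were called.

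**Figure D1:**
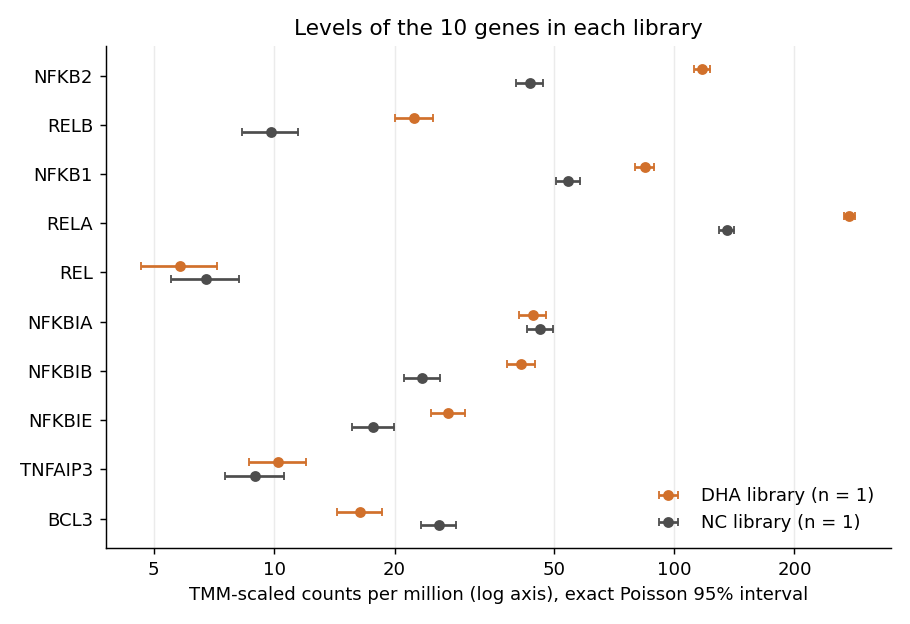
TMM-scaled CPM of the 10 genes on a log axis, in the DHA library and the NC library (1 library each), with exact Poisson 95% intervals of counting error. The intervals of the libraries are apart for NFKB2, RELB, NFKB1, RELA, NFKBIB, NFKBIE and BCL3, and overlap for REL, NFKBIA and TNFAIP3.

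Both noncanonical subunits were higher after DHA. NFKB2 (ENSG00000077150, chromosome 10, 102394110 to 102402529, plus strand), whose precursor protein is also an IκB-like inhibitor of RELB, had 1710 reads or 117 CPM in the DHA library and 671 reads or 43.6 CPM in the NC library. This ratio of 2.69 (95% counting interval 2.46 to 2.95) was the highest of the 10, and 97.5% of all genes tested had a lower one. RELB (ENSG00000104856, chromosome 19, 45001430 to 45038198, plus strand), the partner of processed NFKB2, had 327 reads or 22.4 CPM in the DHA library and 151 reads or 9.81 CPM in the NC library. Its ratio was 2.28 (1.88 to 2.79), a higher ratio than that of 95.9% of genes tested. The lower bound of RELB lay under 2-fold, and the bound of NFKB2 above it. Within 0.1 of the log2 ratio of NFKB2 lay 115 other genes, and within 0.1 of that of RELB 239. With 2 libraries a pattern is a single ratio, so no gene was singled out for likeness.

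The canonical subunits differed among themselves. RELA (ENSG00000173039, chromosome 11, 65653596 to 65663094, minus strand), the main activating subunit of canonical dimers, had 4000 reads or 274 CPM in the DHA library and 2083 reads or 135 CPM in the NC library. The ratio of 2.03 (1.92 to 2.14) stood just past 2-fold. Its log2 ratio was 0.98 when DESeq2 size factors were used, 0.95 with the upper quartile and 0.94 after a trend on gene length was removed, each under 2-fold. NFKB2 and RELB stayed past 2-fold in all 3 of these settings. NFKB1 (ENSG00000109320, chromosome 4, 102501329 to 102617302, plus strand), the canonical counterpart of NFKB2, had 1230 reads or 84.4 CPM in the DHA library and 836 reads or 54.3 CPM in the NC library. That ratio of 1.55 (1.42 to 1.70) did not reach the size rule, though its interval excluded 1.

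REL (ENSG00000162924, chromosome 2, 60881521 to 60931610, plus strand), a subunit best known from lymphocytes, was the subunit with the fewest reads. It had 85 reads or 5.83 CPM in the DHA library and 104 reads or 6.76 CPM in the NC library, a ratio of 0.86 (0.64 to 1.16) whose interval includes 1. A non-coding gene on the same strand, AC010733.2, overlaps 43.3% of its exon length and had 0 reads in both libraries. How reads on shared exons were counted is not given, so the level of REL is uncertain. Among the 5 other genes that the deposited table places in the Rel homology class, all NFAT genes, 4 reached the read minimum, 0 were called, and their log2 ratios ran between -0.70 for NFAT5 and 0.42 for NFATC3.

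**Figure D2:**
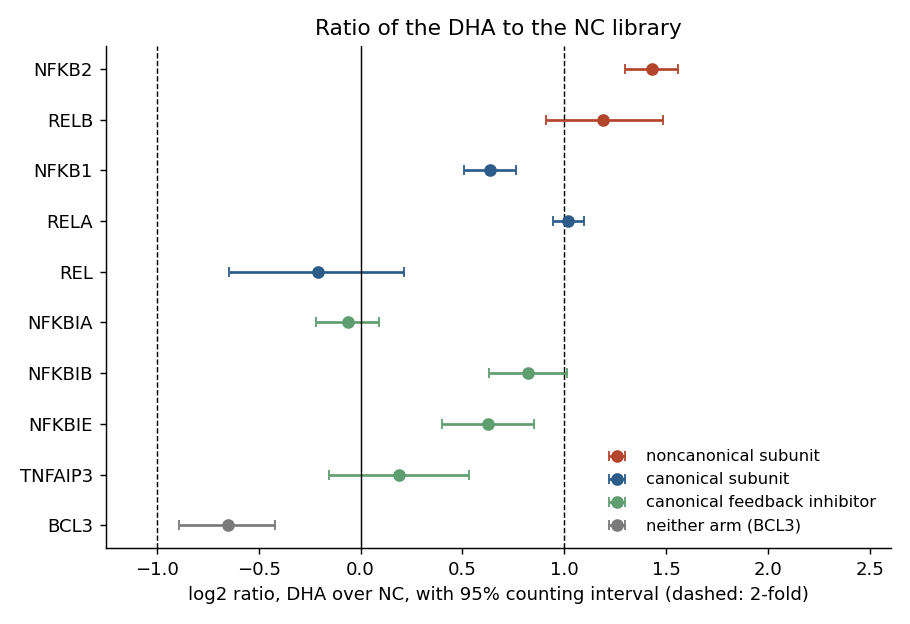
Log2 ratio of the DHA to the NC library for the 10 genes, coloured by role, with 95% counting intervals (1 library per group). Dashed lines mark 2-fold. NFKB2, RELB and RELA lie past the upper line, and the interval of RELB crosses it, as does that of RELA.

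Neither NFKBIA nor TNFAIP3, inhibitors that NF-κB induces as feedback, was called. NFKBIA (ENSG00000100906, chromosome 14, 35401511 to 35404749, minus strand) encodes the IκB protein that is degraded and resynthesised fastest in the canonical response. It had 646 reads or 44.3 CPM in the DHA library and 713 reads or 46.3 CPM in the NC library, a ratio of 0.96 (0.86 to 1.07). The interval leaves room for a change of at most 1.16-fold lower or 1.07-fold higher by counting error alone. TNFAIP3 (ENSG00000118503, chromosome 6, 137867188 to 137883312, plus strand) encodes a deubiquitinase and ubiquitin ligase that shuts off signalling at the receptor complexes. It had 149 reads or 10.2 CPM in the DHA library and 138 reads or 8.96 CPM in the NC library, a ratio of 1.14 (0.90 to 1.45).

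The other IκB genes had higher values in the DHA library without reaching 2-fold. NFKBIB (ENSG00000104825, chromosome 19, 38899700 to 38908893, plus strand), an IκB linked to persistent rather than rapid responses, had 604 reads or 41.4 CPM in the DHA library and 361 reads or 23.5 CPM in the NC library. The ratio was 1.77 (1.55 to 2.02). On the opposite strand, SIRT2 overlaps 1.72% of its exon length. NFKBIE (ENSG00000146232, chromosome 6, 44258166 to 44265788, minus strand), an IκB that binds RELA and REL dimers, had 397 reads or 27.2 CPM in the DHA library and 272 reads or 17.7 CPM in the NC library, a ratio of 1.54 (1.32 to 1.81). The lower bounds of both stood above 1.

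BCL3 (ENSG00000069399, chromosome 19, 44747705 to 44760044, plus strand) had the lowest log2 ratio of the 10. It acts in the nucleus, where it can turn homodimers of the NFKB1 or NFKB2 product into activators or keep them on DNA as repressors. It had 239 reads or 16.4 CPM in the DHA library and 397 reads or 25.8 CPM in the NC library, a ratio of 0.64 (0.54 to 0.75), with 17.3% of genes tested below it. BCL3 and RELB lie on the same strand of chromosome 19, 241386 bases apart, and their ratios stand on opposite sides of 1.

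**Figure D3:**
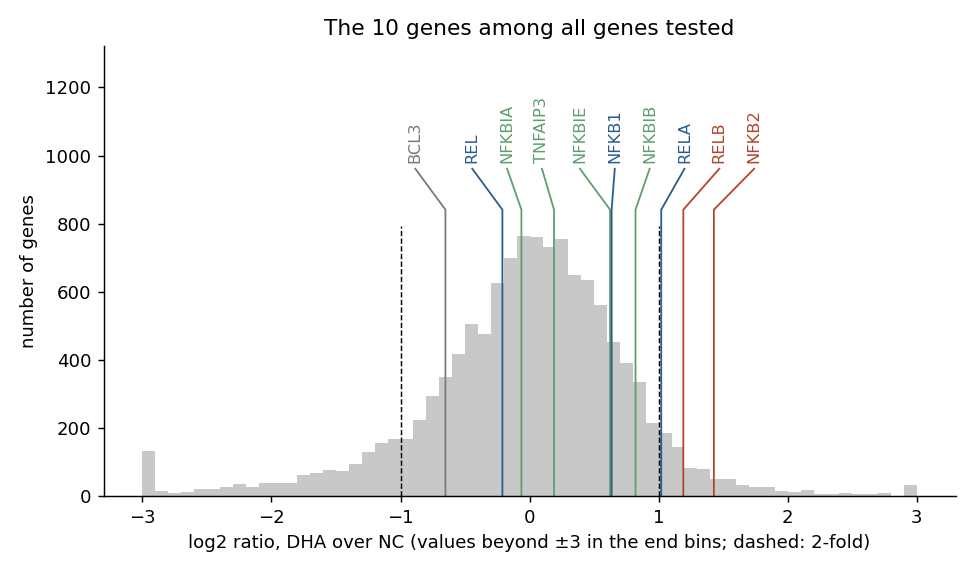
Number of genes by log2 ratio of the DHA to the NC library for the 12064 genes tested (grey, bins of 0.1, values past 3 in either direction in the end bins), with the 10 genes marked and coloured by role as in the plot of ratios. NFKB2, RELB and RELA stand in the upper tail, and BCL3 is the lowest of the marked genes.

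Ratios between members within a library do not depend on how the libraries were scaled, so the arms were compared on reads alone. Each is the ratio of a noncanonical to a canonical gene in the DHA library, divided by the same ratio in the NC library, with an exact conditional 95% interval of counting error. For NFKB2 over NFKB1 it was 1.73 (1.53 to 1.97), so the balance of the 2 precursor genes stood higher on the noncanonical side in the DHA library. For RELB over RELA it was 1.13 (0.92 to 1.39), an interval that includes 1. After the trend on gene length was removed the value was 1.23 and its interval (1.0005 to 1.51) just excluded 1, so whether it includes 1 depends on this correction. For RELB over REL it was 2.65 (1.85 to 3.80), with the limit on REL stated above. The 2 noncanonical subunits together had 2037 reads in the DHA library and 822 in the NC library, and the 3 canonical subunits had 5315 reads in the DHA library and 3023 in the NC library. For these sums the value was 1.41 (1.28 to 1.55). NFKB2 gave 1710 of the 2037 noncanonical reads in the DHA library and 671 of the 822 in the NC library. The value for the sums is thus mostly that of NFKB2 and says little about RELB.

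Some further pairs were chosen after the values were seen. Within the canonical arm RELA over NFKB1 gave 1.31 (1.18 to 1.45), and within the noncanonical arm NFKB2 over RELB gave 1.18 (0.94 to 1.46), an interval that includes 1. The feedback gene NFKBIA stood lower relative to RELA, at 0.47 (0.42 to 0.53). For the 3 IκB genes together relative to RELA and REL it was 0.66 (0.60 to 0.72). BCL3 relative to NFKB2, which encodes one of its partners, was 0.24 (0.20 to 0.29), the largest shift among the 13 pairs compared. BCL3 had the lowest and NFKB2 the highest ratio of all members, so no other pair of members could shift more. The rank of this pair thus follows from its choice and says nothing about the partnership. Relative to NFKB1, BCL3 was at 0.41 (0.34 to 0.49).

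Levels of different genes were compared per length, as CPM per kilobase of exons. In the DHA library the order was RELA (50.2), NFKB2 (26.2), NFKBIA (18.7), NFKBIB (17.8), NFKB1 (13.5), NFKBIE (10.6), RELB (7.39), BCL3 (5.06), TNFAIP3 (2.02) and REL (0.44). Of these neighbours, NFKBIA and NFKBIB alone had overlapping Poisson intervals. In the NC library the order was RELA (24.8), NFKBIA (19.5), NFKBIB (10.1), NFKB2 (9.72), NFKB1 (8.68), BCL3 (7.95), NFKBIE (6.85), RELB (3.23), TNFAIP3 (1.77) and REL (0.51). There, the intervals of each neighbouring pair overlapped along the run NFKBIB, NFKB2, NFKB1, BCL3 and NFKBIE. NFKB2 thus stood apart from NFKB1 in the DHA library, at 1.94 times its per-length level, against 1.12 times in the NC library.

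Among the 5 subunits, RELA made up 51.4% of the summed per-length level in the DHA library and 52.8% in the NC library. The share of NFKB2 was 26.8% (approximate counting interval 25.7 to 27.8) in the DHA library and 20.7% (19.3 to 22.1) in the NC library. The share of NFKB1 was 13.8% (13.1 to 14.5) in the DHA library and 18.5% (17.3 to 19.7) in the NC library. RELB took 7.57% in the DHA library and 6.89% in the NC library, with overlapping intervals, and REL 0.45% and 1.09%. The shares of NFKB2, NFKB1 and REL thus differed beyond their counting intervals, and those of RELA and RELB did not. Shares are relative, so a lower share is not a lower level. NFKB1 had a smaller share in the DHA library although its own ratio was 1.55. The interval of the REL ratio of 0.86 (0.64 to 1.16) includes 1, and the limit on REL counts stated above applies. RELA was the most abundant per length in both libraries. Among the 3 IκB genes, NFKBIA took 39.7% (37.3 to 42.1) in the DHA library and 53.5% (50.9 to 56.2) in the NC library, and NFKBIB 37.9% (35.5 to 40.2) and 27.7% (25.3 to 30.1).

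**Figure D4:**
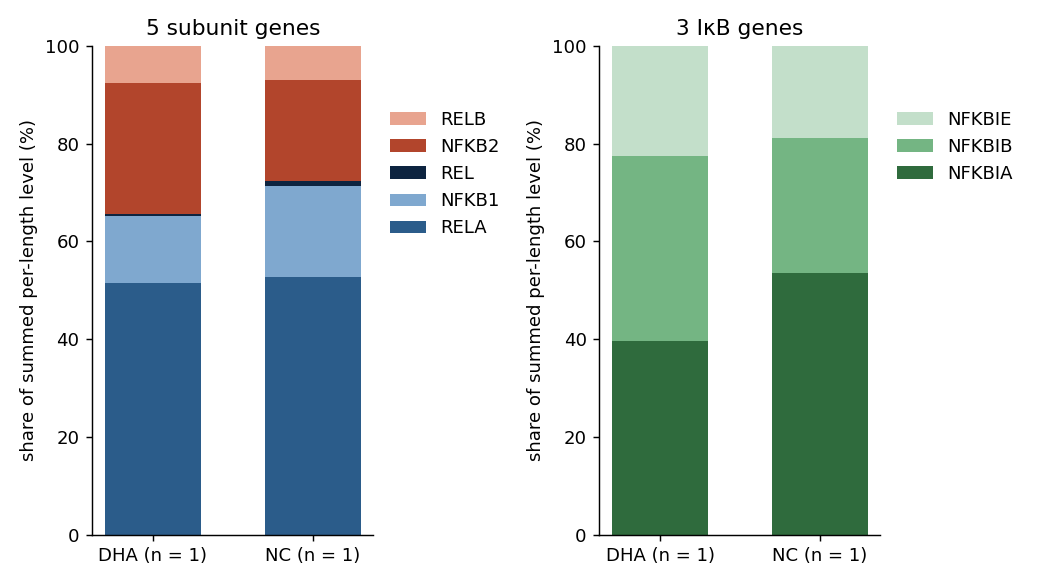
Share of the summed per-length level taken by each of the 5 subunit genes (left) and the 3 IκB genes (right), in the DHA library and the NC library (1 library each, no error bars). NFKB2 takes 26.8% in the DHA library and 20.7% in the NC library, and NFKBIA 39.7% and 53.5% of the IκB sum.

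Genes that act upstream were described by lists of receptors, adaptors and kinases. For the counts of calls in these and the following lists, the shares among all genes tested were 6.72% higher and 10.3% lower. Of the 7 genes of the noncanonical list, 6 reached the read minimum, with 2 called higher, 0 lower and a median log2 ratio of 0.59. The receptor gene TNFRSF12A, which encodes the receptor for the cytokine TWEAK, had 135 CPM in the DHA library and 52.6 CPM in the NC library, a ratio of 2.57 (2.37 to 2.79). MAP3K14, the kinase that starts NFKB2 processing, had 76.5 CPM in the DHA library and 31.4 CPM in the NC library, a ratio of 2.43 (2.18 to 2.71). The lymphotoxin receptor gene LTBR had a ratio of 1.74 (1.64 to 1.84) and CD40 one of 1.31 (1.15 to 1.49), neither past the size rule. TRAF3, the adaptor that keeps MAP3K14 protein low in resting cells, had 1.07 (0.99 to 1.15) and was named after its value was seen.

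Of 27 canonical upstream genes, 25 reached the minimum, with 2 called higher, 3 lower and a median log2 ratio of 0.29. The 3 genes called lower all encode receptors. The receptor genes TNFRSF1A, IL1RAP and IL1R1 of the same list were not called. IL1RAP had a ratio of 1.54 (1.31 to 1.82) and IL1R1 one of 0.96 (0.83 to 1.11). TNFRSF1B, the second receptor for tumour necrosis factor, had 17.6 CPM in the DHA library and 96.9 CPM in the NC library, 5.49-fold lower (4.81 to 6.30). TLR3, a sensor of double-stranded RNA, was 2.93-fold lower (2.35 to 3.70) in the DHA library, and TLR4, the lipopolysaccharide receptor and the third gene called lower, 2.21-fold lower (1.92 to 2.56). The ubiquitin ligase gene TRAF6 was 2.26-fold higher (1.86 to 2.76). IKBKG, the regulatory subunit of the IκB kinase complex, had 228 reads in the DHA library and 99 in the NC library and was 2.43-fold higher (1.91 to 3.11). IKBKG has a near-identical pseudogene, IKBKGP1, with 13 and 7 reads, so its counts are uncertain. The main receptor gene TNFRSF1A had a ratio of 1.36 (1.29 to 1.42), and the catalytic subunit gene IKBKB 1.04 (0.94 to 1.15). TLR4, TNFRSF1A, IL1RAP, IL1R1 and IKBKB were named after their values were seen.

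Genes that serve both arms gave 0 calls among 6, with a median of 0.47. BTRC, which recognises phosphorylated IκB for degradation, had a ratio of 1.63 (1.46 to 1.82), and BIRC2, a ubiquitin ligase, 1.52 (1.43 to 1.63). TRAF2 had 1.39 (1.21 to 1.61) and the kinase gene CHUK 1.38 (1.27 to 1.51). Among 21 other inhibitors and modulators, 20 reached the minimum, with 1 called higher, 2 lower and a median of 0.53. NKIRAS2, a small GTPase that binds IκB, was 2.34-fold higher (2.10 to 2.62). The kinase gene IKBKE was 2.45-fold lower (1.81 to 3.40), with 58 reads in the DHA library and 151 in the NC library, and PDLIM2, which promotes RELA degradation, was 2.15-fold lower (1.43 to 3.35) with 34 and 78 reads. The ubiquitin-binding adaptor gene TAX1BP1 had 1.79 (1.70 to 1.89).

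**Figure D5:**
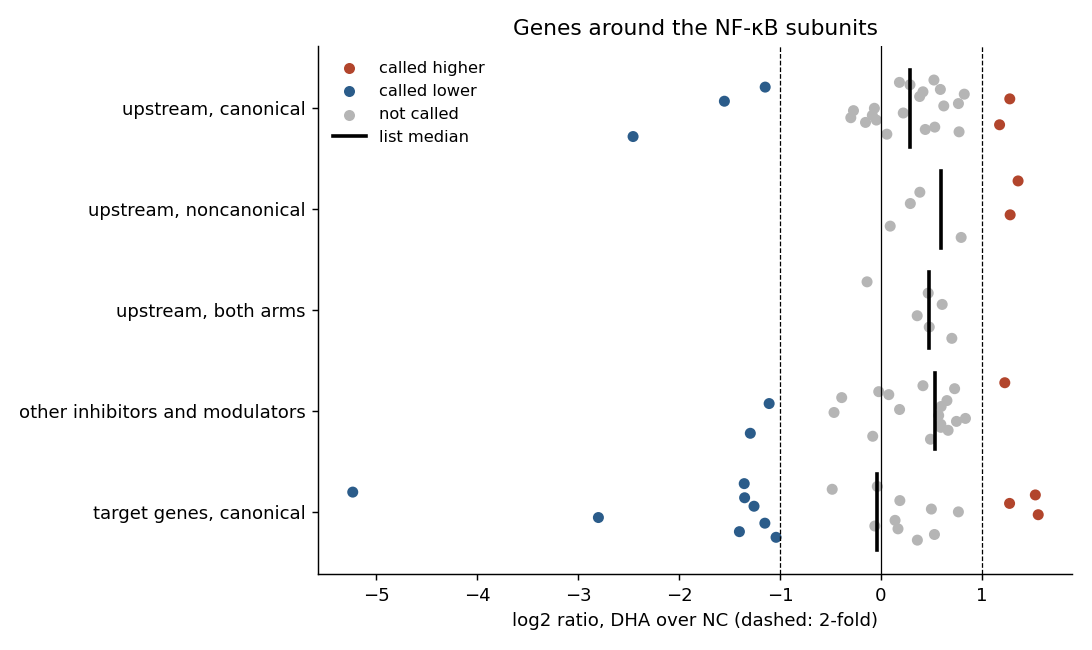
Log2 ratio of the DHA to the NC library for genes that reached the read minimum, in 5 lists of genes around the NF-κB subunits (1 library per group). Each point is a gene, coloured by its call, the black bar is the list median and dashed lines mark 2-fold. The noncanonical upstream list has 2 of 6 genes past the upper line and 0 past the lower, and the canonical target list 3 of 21 and 8 of 21. Of all genes tested, 6.72% were called higher and 10.3% lower.

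Target genes of the canonical arm went both ways. Of 36 listed genes 21 reached the read minimum, with 3 called higher, 8 lower and a median log2 ratio of -0.04. The adhesion molecule gene VCAM1 had 2.40 CPM in the DHA library and 91.7 CPM in the NC library. The chemokine gene CXCL1 was 6.96-fold lower (5.42 to 9.19), with 4.60 CPM in the DHA library and 32.2 CPM in the NC library. The other 6 genes called lower, named after their values were seen, were PLAU, TNFAIP2, CXCL5, CD83, IL32 and ICAM1. PLAU, the urokinase gene, had 233 CPM in the DHA library and 594 CPM in the NC library, and TNFAIP2 had 72.7 CPM in the DHA library and 174 CPM in the NC library. The other 4 of these were between 2.05-fold lower (ICAM1) and 2.64-fold lower (CD83). Genes on the opposite strand overlap 31.1% of the exon length of PLAU and 23.6% of that of ICAM1. On the other side, LCN2, a siderophore-binding protein, had 96.8 CPM in the DHA library and 32.8 CPM in the NC library, and the stress gene GADD45B was 2.89-fold higher (2.36 to 3.57). The third gene called higher was CXCL2, at 10.4 CPM in the DHA library and 4.29 CPM in the NC library. It was named after its value was seen, and is a near relative of CXCL1 in sequence, so reads could be split between them. The cytokine genes TNF and LTB had 0 reads in both libraries, where a count of 0 allows up to 3 reads, or 0.21 CPM in the DHA library and 0.19 CPM in the NC library. Target genes of the noncanonical arm, known mainly from mouse lymphoid stroma, could not be compared, since 0 of 7 reached 50 reads in either library and CXCL12, CXCL13, CCL19 and CCL21 had 0 reads in both.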

How the data were processed

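RNA-seq libraries of 1 DHA-treated and 1 control (NC) SUIT-2 culture were analysed, grouped by their treatment labels. The authors deposited whole-number read counts per gene, not normalized, with gene lengths in bases. Which aligner and counter were run, and whether strand was used, is not stated in the labels. The submitters' processing notes list the mouse build mm8, but all 58735 genes had the identifier, coordinates, strand and length of human GENCODE release 29 on GRCh38, which is used here. RefSeq promoters are of GRCh38.p14.

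Computed here were TMM factors (edgeR 4.0.16, R 4.3.3), CPM, ratios with 0.5 reads added, Clopper-Pearson, Poisson and conditional odds-ratio intervals (scipy 1.17.1), and CPM per kilobase. Approximate intervals of shares came from the delta method with Poisson counts. At about 100 reads in both libraries together the median interval reached 0.62 to either side in log2 units, and 0.19 at about 1000. The size rule was tested on simulated data. Alternatives were other scalings (DESeq2 1.42.0 among them), pseudocounts, read minimums, folds and a length trend removed by lowess.

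The members and gene lists were chosen with earlier results of these data known. Named genes are all members and, in each list, the 4 of largest absolute log2 ratio that reached 50 reads, besides those stated to be named later. One row of the duplicated symbol SOD2 was used. List genes matched by symbol in all 144 entries.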

Additional observations from a re-analysis of the deposited data

How the results depend on the processing

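No paired analysis was possible because there was 1 library per group, and for the same reason no library could be left out. NFKB2 and RELB kept their calls under every scaling, pseudocount and length correction tried, with log2 ratios between 1.36 and 1.44 for NFKB2 and between 1.13 and 1.23 for RELB. RELA fell under 2-fold with DESeq2 size factors (0.98), upper-quartile scaling (0.95) and the length trend removed (0.94), and its range was 0.94 to 1.03. NFKBIA changed sign between settings, from -0.13 to 0.02. At 1.5-fold, 6 members were higher and 1 lower, and at 4-fold 0 were higher, as those thresholds set. With a minimum of 500 reads 5 members remained, with a median of 0.82. Of these 2 were called higher, since RELB, with 327 reads in the DHA library and 151 in the NC library, fell below this minimum. With the length trend removed, RELB over RELA became 1.23 with an interval of 1.0005 to 1.51 that excludes 1, where the uncorrected one includes it, and the cause was not tested. Taken per read and not per length, the change in share of REL was -1.55 percentage points, against -0.64 per length, since REL is long. That of RELA turned to 0.23 from -1.39, both small beside a share of over 50%. For the pathway lists, scalings, pseudocounts and the length correction, added after the data were seen, left each count of calls as it was. The median of all genes tested moved by -0.07 with upper-quartile scaling and by less in size with the other scalings. Intervals cover counting error only, and variation between cultures was not measured, so all ratios here describe these 2 libraries.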
